A study of Bos taurus with 14 samples.

Results

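COL1A1, CREB3L1, RCN3 and P3H4, genes for the making of type I collagen, were followed in the liver of newborn heifer calves. They were found by Ensembl identifier in the deposited count table, as 4 of 27607 genes, and all 4 were among the 13307 genes that passed the filter on low counts. They were selected on their difference in level between VTM and CON, the maternal diets, in these same calves. The diet differences given here, and the SE beside each, are therefore a description and no evidence of a diet effect. A choice by diet difference depends on the level of each gene and on its spread within a diet. It does not use how the 4 genes vary together from calf to calf within a diet, and that is the subject of the tests.

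The calves were born to crossbred Angus-based heifers bred to a single bull. Control dams (CON) received a basal ration, and supplemented dams (VTM) received the same ration with 113 g per heifer per day of a vitamin and mineral premix, from before breeding until parturition. All calves were female, were taken from their dams before suckling, were given colostrum replacer and milk replacer, and were sampled about 30 h after birth, 7 per diet. The study left out CON calf 19 and VTM calf 10 for low alignment, so 6 calves per diet entered the fits, and each calf is named here by its diet and its number. The premix was given as a whole, so no single nutrient can be told apart.

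Type I collagen is the main fibrillar collagen of the body, a triple helix of α1 chains (COL1A1) and an α2 chain (COL1A2). Its chains are hydroxylated, folded and checked in the endoplasmic reticulum before they leave the cell, and defects at many of these steps give brittle bone disease in humans and cattle. CREB3L1, also called OASIS, is a membrane-bound transcription factor of the endoplasmic reticulum that is released by proteolysis and activates COL1A1 in osteoblasts. RCN3 is a calcium-binding protein of the lumen of the endoplasmic reticulum, one of the CREC family. P3H4, also called SC65, has no known enzyme activity of its own and forms a complex with the prolyl hydroxylase family member P3H3 that is needed for lysine hydroxylation of collagen. In liver, fibrillar collagen is made mainly by stellate cells and portal fibroblasts rather than by hepatocytes.

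The libraries held 13382264 to 20125409 counts per calf. VTM calf 40 stood farthest apart, with 15395 genes at 0 counts and 318 genes at 1 to 9 counts. The other 13 libraries had 1265 genes or more at 1 to 9 counts. CON calves 31, 19 and 25 came next, with 13397, 13079 and 12497 genes at 0 counts. They had 1531, 1265 and 2257 genes at 1 to 9 counts. The 12 mitochondrially encoded genes that could be named took 18.1% of the counts in CON calf 31 and 8.57% in CON calf 25, and between 1.89% and 4.31% in each other calf. Values without VTM calf 40, CON calf 25 or CON calf 31 are given beside several of the relations.

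COL1A1 was lower on average in VTM calves and varied widely within CON. Its level was 330.0 CPM (counts scaled to library size with TMM factors over the 14 libraries) in CON calf 1, 515 in CON calf 31, 692 in CON calf 25, 932 in CON calf 13, 1423 in CON calf 37 and 1595 in CON calf 7. In the VTM group it was 290 CPM in calf 16, 311 in calf 40, 337 in calf 22, 368 in calf 34, 506 in calf 4 and 711 in calf 28. CON calves 7, 37 and 13 were above every VTM calf, while CON calf 1 lay among the lowest VTM calves, so the groups overlapped. The group means were 915 ± 505 CPM in CON and 420 ± 162 CPM in VTM (SD, n = 6 each), and the log2 fold change of VTM relative to CON was -1.12 (SE 0.35). In whole tissue, fewer collagen-making cells and less collagen mRNA per cell cannot be told apart.

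CREB3L1, the transcription factor, was scarcer and its groups were closer to separate. In CON it was 15.4 CPM in calf 1, 18.1 in calf 13, 23.9 in calf 31, 24.0 in calf 37, 25.6 in calf 25 and 31.7 in calf 7. In VTM it was 5.61 CPM in calf 40, 11.1 in calf 16, 11.2 in calf 22, 13.8 in calf 34, 14.04 in calf 4 and 17.0 in calf 28. Only VTM calf 28 reached into the CON range, above CON calf 1, and VTM calf 40 was the lowest of all. The means were 23.1 ± 5.77 and 12.1 ± 3.86 CPM (SD, n = 6 each) and the log2 fold change was -0.93 (SE 0.24).

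RCN3, the luminal calcium-binding protein, was high in a different set of CON calves. Its level was 36.2 CPM in CON calf 37, 41.4 in calf 1, 53.7 in calf 13, 56.5 in calf 7, 77.4 in calf 31 and 78.5 in calf 25. The VTM calves lay close together, at 25.5 CPM in calf 4, 28.7 in calf 22, 37.6 in calves 16 and 40, 37.8 in calf 34 and 40.3 in calf 28. CON calf 37, the second highest calf for COL1A1, was the lowest CON calf for RCN3 and lay inside the VTM range. The means were 57.3 ± 17.7 and 34.6 ± 5.98 CPM (SD, n = 6 each), and the log2 fold change was -0.73 (SE 0.21).

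P3H4, the partner of P3H3, had a wide spread within VTM, with a single calf far below the rest. In CON it was 10.8 CPM in calf 1, 13.7 in calf 37, 14.99 in calf 25, 17.1 in calf 31, 18.1 in calf 13 and 29.6 in calf 7. In VTM it was 0.72 CPM in calf 40, 7.10 in calf 22, 8.11 in calf 4, 8.38 in calf 16, 12.3 in calf 34 and 14.03 in calf 28. The value of VTM calf 40 was 12 counts, with an exact 95% Poisson interval of 6.20 to 21.0 that covers counting error only, where each other VTM calf of the 6 had 138 or more. The means were 17.4 ± 6.51 and 8.43 ± 4.63 CPM (SD, n = 6 each) and the log2 fold change was -1.05 (SE 0.45).

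**Figure D1:**
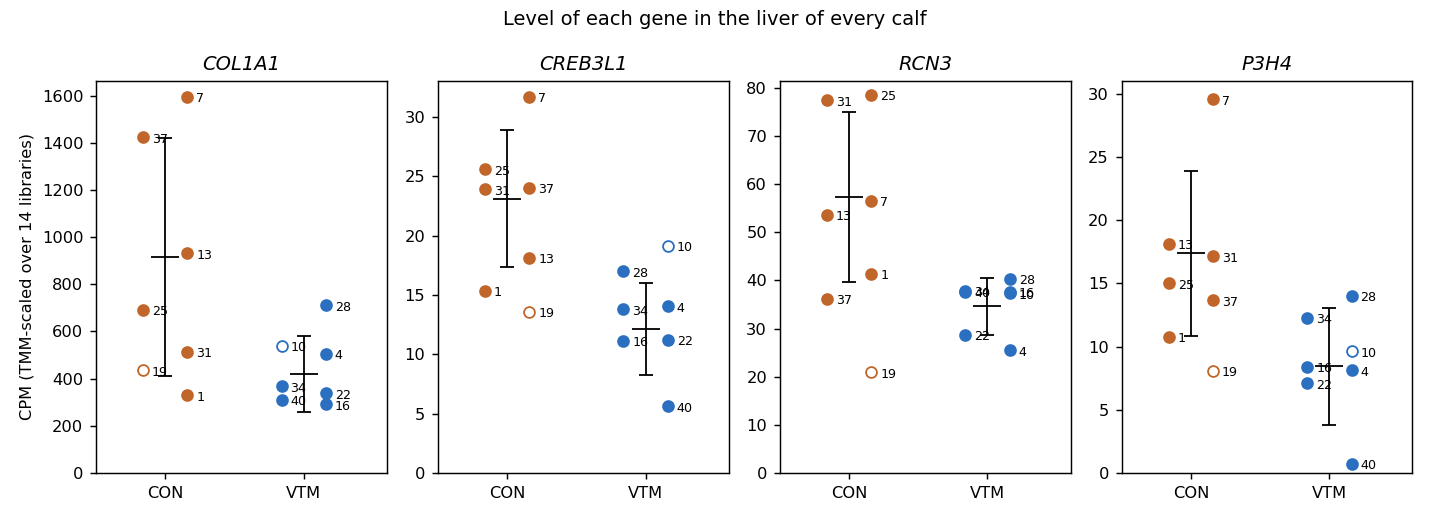
Level of COL1A1, CREB3L1, RCN3 and P3H4 in CPM (vertical axis, scaled by TMM over 14 libraries) in every CON and VTM calf, with the calf number beside each point. Filled points are the 12 calves of the fits, open points CON calf 19 and VTM calf 10, and bars show the mean ± SD of the 6 filled points; CON calf 7 is the highest of all calves for 3 of the 4 genes, and for RCN3 it is CON calf 25.

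For reference, 494 of the 13307 tested genes (3.71%) met the study's rule, an unadjusted p up to 0.05 and a log2 fold change of 0.5 or more in size, with edgeR's quasi-likelihood fit. Of these, 379 (2.85%) were lower and 115 (0.864%) higher in VTM. With DESeq2, the tool that the study used, 630 of the 13307 genes met the rule. No gene passed a Benjamini-Hochberg adjusted p of 0.05 with edgeR or with DESeq2, while 690 with edgeR and 880 with DESeq2 had an unadjusted p up to 0.05. Leaving out 1 of the 12 calves moved the log2 fold change of COL1A1 between -1.33 and -0.90, of CREB3L1 between -1.05 and -0.79, of RCN3 between -0.84 and -0.61 and of P3H4 between -1.25 and -0.81.

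The calves CON 19 and VTM 10 took no part in the choice of the genes, and in this pair the order was the other way round. COL1A1 was at 538 CPM in VTM calf 10 and 436 CPM in CON calf 19. CREB3L1 was at 19.2 and 13.6 CPM, RCN3 at 37.4 and 20.9 CPM, and P3H4 at 9.62 and 8.09 CPM, in the same order. All 4 genes, and 9 of 10 further collagen pathway genes, were higher in VTM calf 10, SERPINH1 alone being higher in CON calf 19. This is 1 calf per diet, both with low alignment, and no test was made. With all 14 calves the log2 fold changes were -0.95 for COL1A1, -0.73 for CREB3L1, -0.57 for RCN3 and -0.90 for P3H4.

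Whether the 4 genes rise and fall together was examined after the mean of each diet had been subtracted from the log2 CPM, so that the diet difference itself adds nothing to a correlation. CREB3L1 and P3H4 were the only pair past an adjusted p of 0.05 over the 12 calves, and that call was lost without VTM calf 40. The differences between the r values of the pairs were not tested. Over 12 calves, CREB3L1 and P3H4 had a Pearson r of 0.89 (exact permutation within diets over all 518400 pairings, two-sided p = 0.00124, adjusted over the 6 pairs p = 0.00743) and a Spearman rho of 0.73 (exact p = 0.00373, adjusted p = 0.0224). VTM calf 40 was lowest for both. Without it, r was 0.74 (exact permutation p = 0.0171, adjusted p = 0.0804). Without the calves farthest from the median of CREB3L1, CON 1 and VTM 40, r was 0.64.

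COL1A1 and CREB3L1 had an r of 0.60 (exact permutation p = 0.0283, adjusted p = 0.0848) and a rho of 0.65 (exact p = 0.0229, adjusted p = 0.0688), neither of which passed 0.05 after adjustment. CON calves 1 and 7 were the lowest and the highest for COL1A1 within CON and for CREB3L1 as well, and without them r was 0.40. Without VTM calf 40 r was 0.73 (exact permutation p = 0.0268, adjusted p = 0.0804), and with all 14 calves it was 0.67 (exact permutation p = 0.00615, adjusted p = 0.0184). COL1A1 and P3H4 had an r of 0.40 and a rho of 0.45 (exact permutation p = 0.0915 and 0.0888, adjusted p = 0.183 and 0.178). Without CON calves 1 and 7 r was 0.30, and without VTM calf 40 it was 0.63 (adjusted p = 0.114).

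RCN3 had an r of -0.16 with COL1A1, 0.14 with CREB3L1 and 0.06 with P3H4 (exact permutation p = 0.685, 0.640 and 0.835, adjusted p = 0.823, 0.823 and 0.835). The rho values were -0.29, 0.18 and 0.17 (exact permutation p = 0.430, 0.575 and 0.551, adjusted p = 0.575 for each). Left out as the calves farthest from the median were CON 1 and CON 7 for COL1A1, CON 1 and VTM 40 for CREB3L1, and CON 37 and VTM 4 for RCN3. The r of RCN3 was then -0.58 with COL1A1, 0.19 with CREB3L1 and 0.06 with P3H4. With VTM calf 40 left out it was -0.14, 0.37 and 0.47 (exact permutation p = 0.728, 0.337 and 0.190, adjusted p = 0.728, 0.404 and 0.285), without CON calf 1 it was -0.54, -0.017 and -0.018, and without CON calf 37 the r with COL1A1 was 0.098. Over 14 calves the r of RCN3 with COL1A1 turned to 0.16 (exact permutation p = 0.675). The calves behind these values can be read from the levels above. CON calves 25 and 31 were high for RCN3 and below the CON mean for COL1A1, and CON calf 37 was high for COL1A1 and low for RCN3. With 12 calves these r values do not show that the genes are unrelated.

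**Figure D2:**
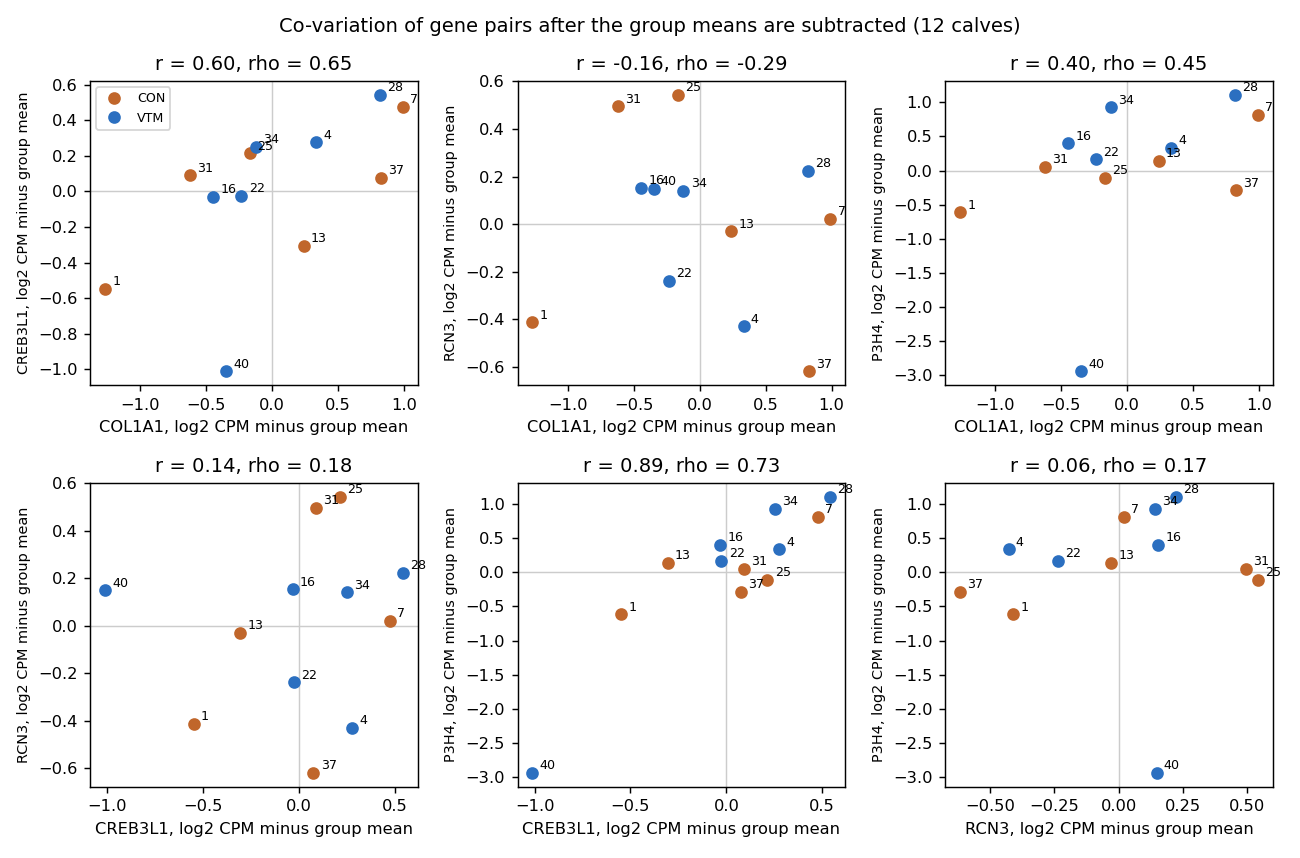
Each panel plots 1 pair of the 4 genes as log2 CPM minus the mean of the calf's own diet, with 1 point per calf (CON and VTM in different colours, calf numbers beside the points) and Pearson r and Spearman rho above. The pair CREB3L1 and P3H4 has an r of 0.89 with VTM calf 40 far below the rest, and the RCN3 panels show no slope in common.

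**Figure D3:**
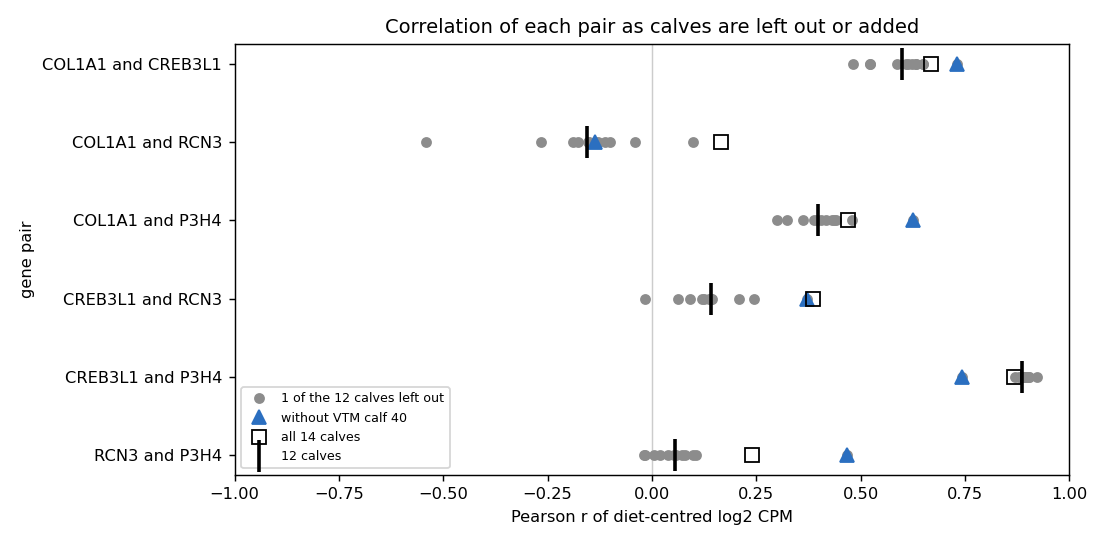
Pearson r of diet-centred log2 CPM (horizontal axis) for each of the 6 gene pairs in 12 calves (bar), with each calf left out in turn (grey points, VTM calf 40 as a triangle) and in all 14 calves (square). CREB3L1 and P3H4 stay between 0.74 and 0.92 when a calf is left out, and COL1A1 and RCN3 range from -0.54 to 0.10.

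Within each diet alone there were 6 calves, and the smallest p that all pairings allow is 0.00139. CREB3L1 and P3H4 had an r of 0.72 in CON and 0.97 in VTM (exact permutation p = 0.101 and 0.0111, adjusted over 12 relations p = 0.37 and 0.133), with rho values of 0.60 and 0.71 (exact permutation p = 0.242 and 0.136, adjusted p = 0.510 each). Without the 2 calves farthest from the median of CREB3L1 the r values over the remaining 4 were -0.62 in CON and 0.56 in VTM, so the relation within CON rests on those calves. COL1A1 and CREB3L1 had an r of 0.67 in CON and 0.67 in VTM (exact permutation p = 0.149 and 0.140, adjusted p = 0.37 each), with rho values of 0.54 and 0.94 (exact permutation p = 0.297 and 0.0167, adjusted p = 0.510 and 0.20). Without the 2 calves farthest from the median of COL1A1 the r values were -0.26 and 0.46. COL1A1 and P3H4 had an r of 0.65 in CON and 0.48 in VTM (exact permutation p = 0.154 and 0.260, adjusted p = 0.37 and 0.519). Without the same 2 calves of each diet it was -0.60 and 0.38. None of the 12 relations within a diet passed 0.05 after adjustment.

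The partner chain COL1A2 gives a measure of how tightly genes of a single fibre can move together in these libraries. COL1A1 and COL1A2 had an r of 0.96, with or without VTM calf 40. The ratio of COL1A1 to COL1A2 counts, which also depends on the lengths of the transcripts, was 1.45 ± 0.25 in CON and 1.30 ± 0.062 in VTM (SD, n = 6 each). It ranged from 1.25 to 1.39 in VTM and from 1.14 to 1.74 in CON. The highest ratios were 1.74 in CON calf 31 and 1.73 in CON calf 25, the calves with the largest shares of mitochondrial transcripts, whose part in the ratio was not tested. COL1A1 counts per RCN3 count were 6.65 in CON calf 31 and 39.3 in CON calf 37, at 18.1 ± 13.2 in CON and 12.5 ± 5.08 in VTM (SD, n = 6 each). P3H4 counts per P3H3 count were 0.996 ± 0.24 in CON and 0.693 ± 0.33 in VTM (SD, n = 6 each), with VTM calf 40 at 0.154.

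The relation to COL1A1 was then tested for every gene in a single fit, as the slope of a gene's log2 level on the log2 CPM of COL1A1 with diet in the model. A slope of 1 means that the gene doubles when COL1A1 doubles. In edgeR's quasi-likelihood fit, 2 of 13306 genes (0.0150%) passed an adjusted p of 0.05. At an unadjusted p up to 0.05 there were 1089 (8.18%), 444 of them (3.34%) with a positive slope. These 2 were COL1A2, with a slope of 0.94 (SE 0.10, adjusted p = 0.00631), and MMP2, a gelatinase that cleaves denatured collagen, with a slope of 0.88 (SE 0.10, adjusted p = 0.00649). Without CON calf 7 no gene passed, without CON calf 1 there were 809, and without CON calf 25 there were 4. With DESeq2 67 genes passed.

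The fibrillar chain COL3A1 and the chains of type VI collagen, which forms beaded filaments around cells, followed with slopes of 0.69 for COL3A1, 0.57 for COL6A2 and 0.52 for COL6A1 (SE 0.11, 0.095 and 0.089, edgeR adjusted p = 0.0797 each). Among the folding proteins, FKBP10, a prolyl isomerase of the endoplasmic reticulum, had a slope of 0.65 (SE 0.13, adjusted p = 0.216) and SERPINH1, the collagen chaperone HSP47, 0.46 (SE 0.14, adjusted p = 0.559). None of these 5 genes passed the adjusted threshold.

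The 3 genes chosen with COL1A1 ranked lower. CREB3L1 had a slope of 0.38 (SE 0.16, edgeR adjusted p = 0.583) and was 815th by p, P3H4 had a slope of 0.53 (SE 0.33, adjusted p = 0.677) and was 2527th, and RCN3 had a slope of -0.10 (SE 0.17, adjusted p = 0.873) and was 8912th of 13306. Leaving out 1 calf gave slopes of 0.32 to 0.44 for CREB3L1, 0.42 to 0.67 for P3H4 and -0.31 to 0.03 for RCN3, and none of the 3 passed in any of the 12 fits. None of them was therefore shown to follow COL1A1 the way its partner chain did.

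The slope on CREB3L1 was tested in the same way. No gene passed an adjusted p of 0.05 with edgeR, 1398 of 13306 (10.5%) had an unadjusted p up to 0.05, 956 of them (7.18%) with a positive slope, and 380 passed the adjusted threshold with DESeq2. P3H4 stood sixth by p, with a slope of 1.91 (SE 0.40, edgeR adjusted p = 0.421). Without VTM calf 40 the slope was 1.07 (SE 0.34, adjusted p = 1.00), and with DESeq2 on the 12 calves it was 1.92 (adjusted p = 0.000605). Next came COL16A1, a chain of a fibril-associated collagen, with 1.53 (SE 0.33, adjusted p = 0.421), and P3H3, the partner of P3H4, stood 13th with 0.94 (SE 0.21, adjusted p = 0.421). COL1A1 itself had a slope of 0.85 on CREB3L1 (SE 0.34, adjusted p = 0.452, 786th), and RCN3 had 0.12 (SE 0.25, adjusted p = 0.874).

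When P3H4 was the reference gene, a choice made after the data were seen, 283 of 13306 genes (2.13%) passed an adjusted p of 0.05 with edgeR, 249 of them (1.87%) with a positive slope, and 2971 (22.3%) had an unadjusted p up to 0.05. COL16A1 was among them with a slope of 0.68 (SE 0.13, adjusted p = 0.0367), CREB3L1 with 0.38 (SE 0.080, adjusted p = 0.0410) and P3H3 with 0.40 (SE 0.089, adjusted p = 0.0445). Without VTM calf 40, and likewise without VTM calf 28, 0 genes passed. Without CON calf 13 there were 5, without VTM calf 16 there were 6, and without CON calf 31 there were 793. The slope of CREB3L1 on P3H4 lost its call in 8 of the 12 fits that left out a calf, with adjusted p between 0.0284 and 1.00, and ranged from 0.36 to 0.52. COL1A1 had a slope of 0.24 on P3H4 (SE 0.16, adjusted p = 0.397) and RCN3 0.01 (SE 0.10, adjusted p = 0.963).

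RCN3 as the reference, also chosen after the data were seen, gave a long list without the other 3 genes. Of 13306 genes, 1150 (8.64%) passed an adjusted p of 0.05 with edgeR, 624 of them (4.69%) with a positive slope, and 3680 (27.7%) had an unadjusted p up to 0.05. None of the 4 genes or of the 10 named collagen pathway genes was among the 1150, the nearest being SPARC, a collagen-binding matricellular protein, with a slope of 0.47 (SE 0.24, adjusted p = 0.221). COL1A1 had -0.40 (SE 0.51, adjusted p = 0.657). No gene passed without CON calf 1, 25, 31 or 37 or without VTM calf 4, and without VTM calf 40 there were 1968.

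RCN3 was highest in the calves with the largest mitochondrial shares, CON 25 and CON 31. Over the 12 calves its diet-centred r with that share was 0.72 (exact permutation p = 0.0407, adjusted over 4 relations p = 0.163) and rho was 0.76 (exact p = 0.0134, adjusted p = 0.0535), and r was 0.22 without those calves, so the relation rests on them. For COL1A1 r was -0.52 and rho -0.62 (exact permutation p = 0.194 and 0.0790, adjusted p = 0.388 and 0.158), and r was -0.64 without the same calves. CREB3L1 had an r of 0.11 and P3H4 of 0.05 (exact permutation p = 0.721 and 0.782, adjusted p = 0.782 each), with rho values of 0.05 and 0.10. The part of the mitochondrial share in the RCN3 slopes was not tested.

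**Figure D4:**
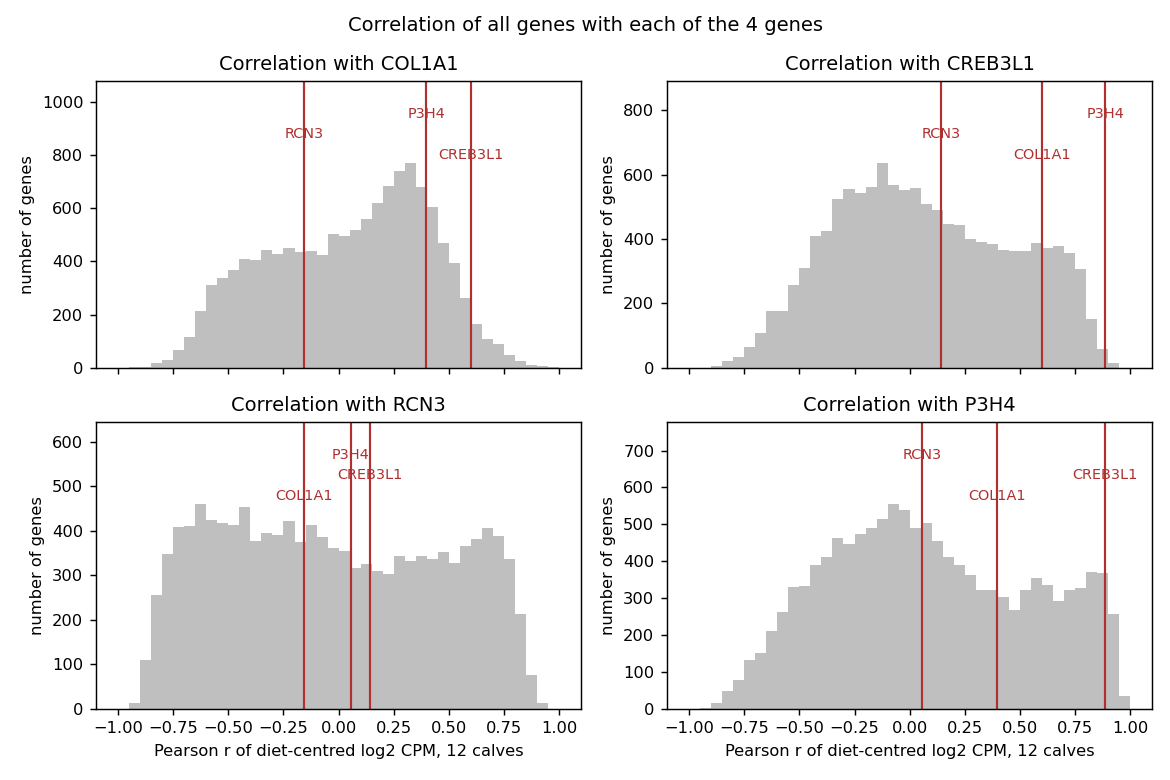
Distribution over 12659 genes (vertical axis, number of genes) of the Pearson r of diet-centred log2 CPM with each of the 4 genes in 12 calves, with lines for the other 3. P3H4 lies at 0.89 in the panel of CREB3L1. RCN3 lies near the middle in the panels of CREB3L1 and P3H4 and below the median in that of COL1A1.

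Set against all 12659 genes with a mean of at least 1 CPM, the r of CREB3L1 with COL1A1 was higher than that of 96.4% of genes, the r of P3H4 with COL1A1 than 82.5% and the r of RCN3 with COL1A1 than 31.5%. The r of P3H4 with CREB3L1 was higher than 99.8% of genes. Seen from P3H4, the same r was higher than 97.0%. Both ranks include VTM calf 40, without which this r was 0.74, and they were not computed without that calf. The named genes most like COL1A1 were COL1A2 (0.96), MMP2 (0.96), COL6A1 (0.95), COL6A2 (0.94), COL3A1 (0.92), the proteoglycan VCAN (0.91), ITIH5 (0.89), FKBP10 (0.87), the matrix glycoprotein FBLN1 (0.85) and the intermediate filament gene NES (0.85). Without VTM calf 40 these 10 values lay between 0.87 and 0.96.

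The 3 named genes most like CREB3L1 were the receptor tyrosine kinase TYRO3 (0.91), PRR36 (0.89) and the endothelial receptor ROBO4 (0.89), and without VTM calf 40 they were at 0.81, 0.72 and 0.82. Those most like RCN3 were DTNBP1 (0.90), EVA1B (0.90) and the matrix protein SPON2 (0.88), and without VTM calf 40 they were at 0.92, 0.90 and 0.89. Those most like P3H4 were ZBTB47 (0.98), the histone deacetylase HDAC7 (0.97) and the growth factor TGFB3 (0.95), and without VTM calf 40 they were at 0.84, 0.79 and 0.71. None of these correlations across genes is given a p, since all genes share the 12 libraries and their depths. Only genes with a name could be listed, which favours genes that the study reported.

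Of 91 genes on lists of collagen chains, folding and modifying enzymes, the CREC family, export from the endoplasmic reticulum, the CREB3 family with its proteases, and extracellular processing, 10 could be matched to a row by name. These were COL1A2 and COL3A1 of the fibrillar chains, COL6A1, COL6A2, COL8A1 and COL16A1 of the other chains, P3H3, SERPINH1 and FKBP10 of the modifying and folding proteins, and SPARC. The other 81 genes, among them PLOD1 and PPIB, the further partners of P3H4, the other reticulocalbins, and MBTPS1 and MBTPS2, the proteases that release CREB3L1, were not analysed here. The names came from the study's own tables of genes that differed in these calves. A call by the study's rule, its direction and the size of the fold change were thus largely set by the naming. They are no independent evidence that collagen genes differ more than others. By the study's rule all 10 were lower in VTM, against 2.85% of all tested genes, with a median log2 fold change of -0.62 against -0.02 over all genes, and each had an edgeR adjusted p of 0.791.

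The log2 fold changes ran from -1.01 for COL16A1 and -0.99 for COL1A2 to -0.54 for COL6A1. With all 14 calves 5 of the 10 met the rule. With 1 calf left out it was 5 to 10, the lowest count being reached without VTM calf 16, VTM calf 22 or CON calf 7, and 6 without CON calf 13, CON calf 37 or VTM calf 40.

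Within diets, the r values of these 10 genes and the 4 were high in a set of genes around COL1A1 and in a set around CREB3L1. COL1A1, COL1A2, COL3A1, COL6A1, COL6A2 and FKBP10 had r values of 0.82 to 0.96 with each other. CREB3L1, P3H4, P3H3 and COL16A1 had r values of 0.87 to 0.89 with each other. COL16A1 was lowest in VTM calf 40, at 42 counts, as were P3H3, at 78 counts, and CREB3L1, at 93 counts. Without that calf the 6 r values of the group around CREB3L1 were 0.60 to 0.74, while CREB3L1 had 0.91 with SPARC, against 0.66 with that calf, and 0.73 with COL1A1, against 0.60. COL16A1 then had 0.79 with COL1A1, P3H3 had 0.81 with COL6A1 and P3H4 had 0.82 with SERPINH1. Their r values with CREB3L1 were lower, at 0.67, 0.72 and 0.74, so the set around CREB3L1 was not separate without VTM calf 40.

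RCN3 had an r of 0.57 with SPARC, and of -0.51 to 0.14 with the other 12. P3H4 and FKBP10 are neighbours in the RefSeq gene order of ARS-UCD2.0, and their r was 0.46. No change of these correlations between calf sets was tested.

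**Figure D5:**
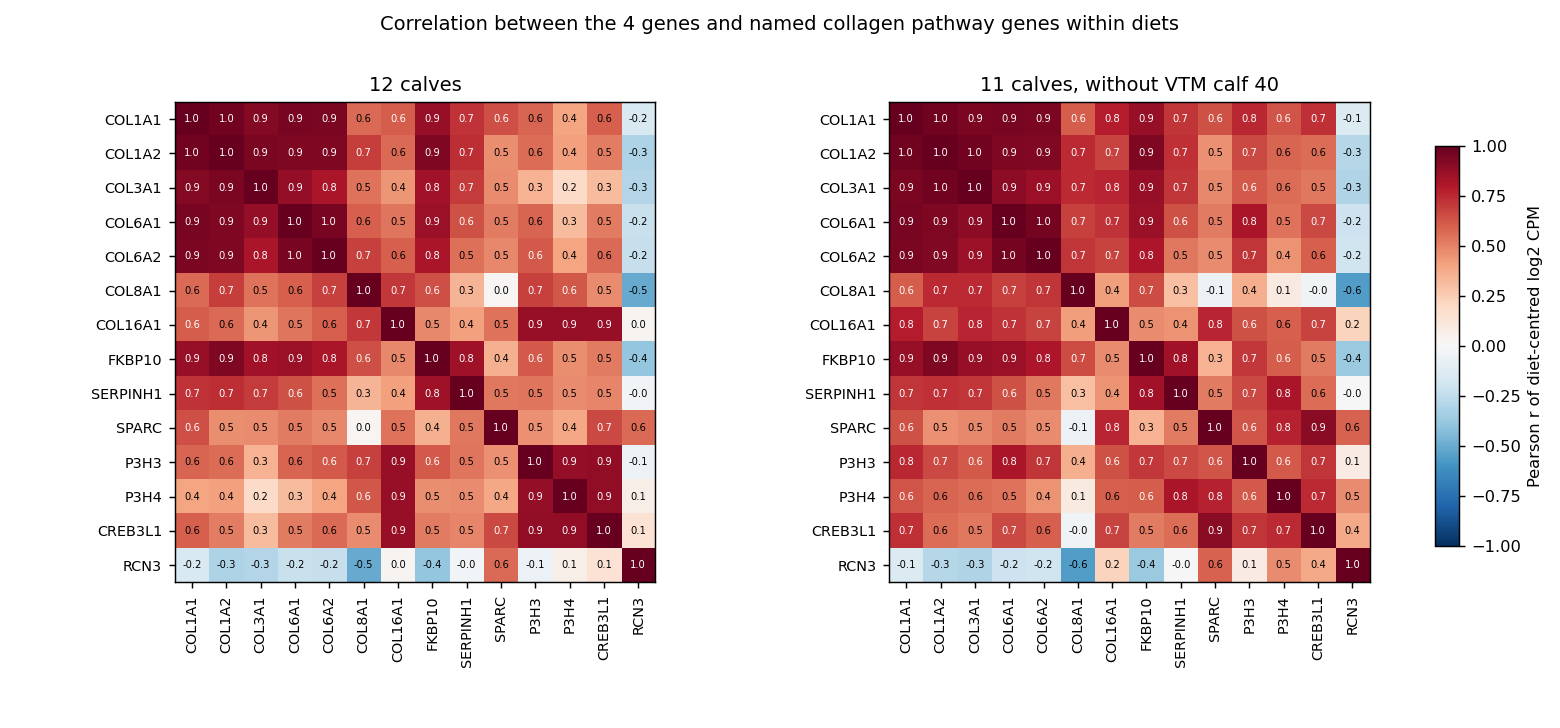
Pearson r of diet-centred log2 CPM between the 4 genes and 10 named collagen pathway genes, in 12 calves (left) and without VTM calf 40 (right), on a colour scale from -1 to 1. The genes from COL1A1 to COL6A2 with FKBP10 stay above 0.8 on both sides, while the r of P3H4 with CREB3L1, P3H3 and COL16A1 falls from between 0.87 and 0.89 to between 0.60 and 0.74 on the right.

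Whether the relations differ between the diets was tested as the difference of slopes, VTM minus CON. On COL1A1 the differences were 0.40 for CREB3L1 (SE 0.39), 0.52 for P3H4 (SE 0.79) and 0.12 for RCN3 (SE 0.40), with an edgeR adjusted p of 1 for each. No gene passed an adjusted p of 0.05 with edgeR, 141 of 13306 (1.06%) had an unadjusted p up to 0.05, and 3 passed the adjusted threshold with DESeq2. On CREB3L1, a test chosen after the data were seen, the slope of P3H4 was steeper in VTM by 1.73 (SE 0.61, edgeR adjusted p = 0.485). The slope of SPARC was flatter in VTM by -0.95 (SE 0.35, adjusted p = 0.485), and the slope of COL1A1 differed by -0.89 (SE 0.75, adjusted p = 0.687). No gene passed with edgeR there either, while 1337 (10%) had an unadjusted p up to 0.05; DESeq2 was not run. With VTM calf 40 left out, these differences on CREB3L1 were 0.43 for P3H4 (SE 0.81), -0.49 for SPARC (SE 0.57) and 0.45 for COL1A1 (SE 1.18), with an edgeR adjusted p of 0.993 each, and 200 of 13501 genes had an unadjusted p up to 0.05. At 6 calves per diet no difference between the diets in how these genes move together was detectable after adjustment.

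Markers of the cells that the tissue could hold were set beside the 4 genes, as sums of CPM over the listed genes that had a name. For fibroblasts of the portal tract or capsule 5 of 10 markers were named, and their sum was 273 to 724 CPM in CON and 258 to 451 CPM in VTM, highest in CON calf 7. For stellate cells 2 of 8 were named, LRAT and RELN, with sums of 11.2 to 68.7 CPM in CON and 70.8 to 84.9 CPM in VTM. For smooth muscle 1 of 5 was named, TAGLN, at 52.2 to 154 CPM in CON and 33.96 to 77.4 CPM in VTM. These ranges, and those below, are for the 12 calves. Among them the stellate sum was higher in every VTM calf than in every CON calf. This order did not hold in the calves left out, where the stellate sum was 103 CPM in CON calf 19, the highest of the 14, and 92.5 CPM in VTM calf 10. TAGLN was at 19.7 CPM in CON calf 19 and 48.7 CPM in VTM calf 10. LRAT was among the genes that the study picked as higher in VTM.

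Cholangiocyte markers (3 of 5 named) summed to 44.3 to 101 CPM in CON and 27.0 to 69.0 CPM in VTM, and endothelial markers (2 of 10) to 121 to 437 and 99.3 to 145 CPM. The only hepatocyte marker with a name was TTR (1 of 9), at 222 to 2228 CPM in CON and 145 to 934 CPM in VTM, so the liver label was checked on TTR alone. CON calves 31 and 25 had the highest endothelial sums, at 437 and 244 CPM, and the highest TTR levels, at 2228 and 1523 CPM. Every named list except that of stellate cells had its maximum over the 12 calves in CON. With CON calf 19 included the stellate maximum was in CON too. The marker names, like those of the pathway genes, came from the study's own tables, so the sums are no independent evidence of a direction. No marker of mesothelium, macrophages or erythroid cells was named, and no named marker list was at 0 in any calf.

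On COL1A1, the fibroblast markers had slopes of 0.78 for FBLN1 (SE 0.15, edgeR adjusted p = 0.165), 0.51 for DPT, 0.45 for ELN, 0.23 for DCN and 0.11 for MFAP4. The stellate markers had -0.26 for LRAT and 0.07 for RELN, and the smooth muscle marker TAGLN had 0.43. The cholangiocyte markers had 0.56 for KRT7, 0.51 for KRT19 and 0.24 for SOX9. The endothelial markers had -0.38 for STAB1 and -0.37 for EGFL7, and the hepatocyte marker TTR had -1.10 (SE 0.35, adjusted p = 0.559). None of these 14 markers passed an adjusted p of 0.05 on COL1A1, CREB3L1 or P3H4.

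On RCN3, 5 of the 14 markers passed with edgeR over 12 calves. The endothelial markers EGFL7 and STAB1 had slopes of 1.41 (SE 0.26) and 1.05 (SE 0.23), with adjusted p = 0.0264 each, TTR had 2.10 (SE 0.53, adjusted p = 0.0331) and the fibroblast marker MFAP4 had 1.2 (SE 0.32, adjusted p = 0.0374). The stellate marker RELN had -1.97 (SE 0.57, adjusted p = 0.0490). Markers of the same lists that did not pass included LRAT at 0.21 and FBLN1 at -0.20, with the opposite sign to RELN and MFAP4, and DCN, DPT and ELN at 0.47, 0.91 and 0.34.

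None of the 5 passed without CON calf 25 (adjusted p between 0.133 and 0.217) or without CON calf 31 (between 0.114 and 0.173), where no gene passed at all, while 2511 and 2475 had an unadjusted p up to 0.05. As given above, no gene passed without CON calf 1, CON calf 37 or VTM calf 4 either. Without both calves the slopes were 0.95 for EGFL7, 0.48 for STAB1, 1.48 for TTR, 0.98 for MFAP4 and -0.49 for RELN, with an adjusted p of 0.994 each. The part of these cells in the levels of the 4 genes was not tested.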

How the data were processed

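Strand-specific libraries of poly(A) RNA from 14 calf livers were sequenced. Reads were aligned by the authors to ARS-UCD1.2 with STAR 2.7.5. The deposited values are raw counts for each Ensembl gene, not normalized, for all 14 calves. The strand column used is not given in the sources used here. Groups are those of the labels. Symbols came from the study's supplementary tables, which named 629 of the 27607 identifiers, and the RefSeq gene order of ARS-UCD2.0 gave neighbours only. The 4 genes, the lists and the rule for named genes (the 4 genes, list genes that met the study's rule, and the named genes most like each of the 4) were chosen with earlier results of these data known.

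Counts were fitted with edgeR 4.0.16 (filterByExpr, TMM, quasi-likelihood) in R 4.3.3, with diet alone, diet and the log2 CPM (prior count 2) of a reference gene, or their product. Adjusted p-values are Benjamini-Hochberg over all genes tested. Each edgeR SE was worked back from the fit, as the size of the estimate divided by the square root of its F statistic. Pair correlations used exact permutation within diets over all pairings, in place of the random draws planned. Python 3.11.15 with numpy 2.4.6 drew the correlations. The slope fit was run on simulated data in which genes varied independently apart from the effect put in. That run does not cover effects shared by the genes of a calf. Alternatives were DESeq2 1.42.0, RLE size factors, a prior count of 0.5, variance-stabilized counts, all 14 calves, other filters, only those libraries of which 90% or more of the reads aligned, and each calf left out. The slopes on RCN3 and P3H4, the difference of slopes on CREB3L1, the mitochondrial share, and the fits of marker slopes and slope differences without CON calves 25 and 31 or VTM calf 40 were added after the data were seen.

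Depth was 13382264 to 20125409 counts per calf.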

Additional observations from a re-analysis of the deposited data

How the results depend on the processing

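No paired analysis was made, since dams were allocated to the diets at random after stratification by body weight and no pairs are given. The number of genes past the study's rule for VTM against CON was 494 over 12 calves with edgeR and 630 with DESeq2. With edgeR it was 1003 with no gene filter and 275 over 14 calves, and 286 (without CON calf 31) to 1039 (without CON calf 37) with a calf left out. Of the 10 pathway genes, 5 met it over 14 calves and 5 to 10 with a calf left out. Genes with a slope on COL1A1 numbered 2 in 12 calves, 6 over 14 calves, 1 in libraries with at least 90% aligned, 67 with DESeq2 and 0 to 809 with a calf left out. On CREB3L1 there were 0 in 12 calves, 1 over 14 calves, 380 with DESeq2 and 0 to 1 with a calf left out. On RCN3 there were 1150, and 627 with no gene filter, 3474 over 14 calves, 0 in libraries with at least 90% aligned (2207 at an unadjusted p up to 0.05), 2298 with DESeq2 and 0 to 1968 with a calf left out. On P3H4 there were 283, and 52 with at least 10 counts in every library, 186 over 14 calves, 2176 with DESeq2 and 0 to 793 with a calf left out. The difference of slopes on COL1A1 gave 3 genes with DESeq2 and 0 to 1 with a calf left out. With a calf left out, the genes at an unadjusted p up to 0.05 with edgeR numbered 562 to 3822 on COL1A1, 383 to 1884 on CREB3L1, 2291 to 4547 on RCN3 and 479 to 3630 on P3H4. DESeq2 was not run with calves left out.

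Among slopes and r values between the 4 genes over both diets, those whose sign turned involved RCN3. The difference between diets in the slope of COL1A1 on CREB3L1, -0.89 in 12 calves, was 0.45 without VTM calf 40. The slope of FBLN1 on RCN3, -0.20 in 12 calves, was 0.0039 without CON calf 25, -0.010 without CON calf 31 and 0.42 without both. Within CON alone, r of CREB3L1 with P3H4, of COL1A1 with CREB3L1 and of COL1A1 with P3H4 turned to -0.62, -0.26 and -0.60 without 2 calves. The slope of RCN3 on COL1A1 was 0.067 over 14 calves and -0.31 to 0.028 with a calf left out. Its slope on CREB3L1 was -0.017 in libraries with at least 90% aligned and -0.0037 to 0.50 with a calf left out, and on P3H4 -0.011 to 0.40. The slope of COL1A1 on RCN3 was 0.20 over 14 calves and -0.75 to 0.033 with a calf left out. The r of COL1A1 with RCN3 was 0.16 over 14 calves and -0.54 to 0.10 with a calf left out, of CREB3L1 with RCN3 -0.017 to 0.37, and of RCN3 with P3H4 -0.018 to 0.47. The r of COL1A1 with CREB3L1 was 0.67 over 14 calves, where it passed 0.05, and 0.48 to 0.73 with a calf left out (adjusted p = 0.0461 to 0.283). For COL1A1 with P3H4 it was 0.30 to 0.63, and for CREB3L1 with P3H4 0.74 to 0.92 with a calf left out (adjusted p = 0.00264 to 0.0804), above the threshold without VTM calf 40 only. RLE size factors, a prior count of 0.5 and variance-stabilized counts changed no call among the 6 pairs. The causes of these changes were not tested. P3H4 in VTM calf 40 rests on 12 counts.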
